A study of Homo sapiens with 14 samples.

Results

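Metallothioneins and the genes that serve zinc export were followed in RS4;11 cells through 24 h of dexamethasone. The 8 genes were MT2A, MT1X, MT1H, MT1F, MT1E and MT1G, the zinc exporter gene SLC30A1 and the zinc sensor gene MTF1. Every probe set annotated with exactly 1 gene, that gene being 1 of the 8, was taken, which gave 13 probe sets of 19070 with a single gene. RS4;11 is an established human line of B-cell precursor acute lymphoblastic leukemia with a rearranged KMT2A gene. All cells had been kept without hormone in charcoal-dextran-treated serum for 48 h. The groups were untreated cells (0 h, n = 4 arrays), cells after 8 h of 10 nM dexamethasone (n = 5) and cells after 24 h of 10 nM dexamethasone (n = 5). Dexamethasone is a synthetic glucocorticoid that activates the glucocorticoid receptor (GR).

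Metallothioneins are small, cysteine-rich proteins that bind zinc and copper and buffer the free zinc of the cell. Their genes lie side by side, and most respond to zinc through metal response elements, short promoter sequences bound by the zinc-sensing transcription factor MTF1. SLC30A1, which encodes the plasma membrane zinc exporter ZnT1, is another target of MTF1. MT2A is also a textbook target of glucocorticoids in human cells.

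The 6 metallothionein genes lie on chromosome 16 in the GRCh38.p14 assembly, within a cluster of 16 metallothionein genes and pseudogenes that spans 119124 bases (chr16:56565073-56684196), 11 of them protein coding. MT2A lies at chr16:56608584-56609497, MT1E at chr16:56625781-56627112, MT1F at chr16:56657959-56659303, MT1G at chr16:56666730-56668065, MT1H at chr16:56669814-56671129 and MT1X at chr16:56682470-56684196. SLC30A1 (chr1:211571568-211579161) and MTF1 (chr1:37809574-37859592) lie on chromosome 1.

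The promoters of MT2A, MT1H, MT1X and SLC30A1 are shown because all of these genes were higher at 8 h and their upstream sequences can be set beside each other for the core of the metal response element. MT1E, MT1F and MT1G were also called higher at 8 h, but their promoters were not matched in the source used and were not searched. Each sequence holds the 160 bases before the start of the gene in RefSeq (GRCh38.p14), read 5′ to 3′ on the strand of the gene, and capitals mark every match to TGCACNC or TGCGCNC on either strand.
MT2A, chr16:56608424-56608583, plus strand: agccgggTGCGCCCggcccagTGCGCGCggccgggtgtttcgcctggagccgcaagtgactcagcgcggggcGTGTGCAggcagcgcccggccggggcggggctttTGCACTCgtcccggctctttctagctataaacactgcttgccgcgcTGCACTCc
MT1H, chr16:56669654-56669813, plus strand: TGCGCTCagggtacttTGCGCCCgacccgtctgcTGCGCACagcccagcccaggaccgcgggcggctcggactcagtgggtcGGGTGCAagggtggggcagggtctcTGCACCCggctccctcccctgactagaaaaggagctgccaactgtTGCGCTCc
MT1X, chr16:56682310-56682469, plus strand: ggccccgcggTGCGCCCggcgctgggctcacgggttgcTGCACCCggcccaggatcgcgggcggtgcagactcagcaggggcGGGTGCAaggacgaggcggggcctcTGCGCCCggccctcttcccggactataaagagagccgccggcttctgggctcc
SLC30A1, chr1:211579162-211579321, minus strand: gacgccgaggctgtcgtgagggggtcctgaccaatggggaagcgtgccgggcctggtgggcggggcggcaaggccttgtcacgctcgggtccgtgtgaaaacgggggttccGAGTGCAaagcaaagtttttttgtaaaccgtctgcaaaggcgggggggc
Over the 250 bases before the start, MT1H held 8 matches, MT2A held 7, MT1X held 4 and SLC30A1 held 1, while the MTF1 promoter held 0. Of 35116 RefSeq promoters searched over the same 250 bases, 24.8% held at least 1 match and 0.370% held at least 4. The hexamer AGAACA, 1 arm of the glucocorticoid response element, stood on either strand in 12.4% of all promoters and in none of the 5 member promoters. The full element, AGAACA and TGTTCT set 3 bases apart, stood in 1 of the 35116 promoters and in none of the 5. These are matches of letters within a short window, and no binding was measured here. An element beyond the 250 bases, or with other letters, would not have been found. The search therefore cannot show that a promoter lacks a glucocorticoid response element.

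All 14 arrays had medians between 6.03 and 6.11 on the log2 scale, and no array was a copy of another. Of 14 probe sets of 7 canonical glucocorticoid targets, 11 were higher at 8 h and 11 at 24 h, where 7.75% and 18.5% of all probe sets were higher. Among them were TSC22D3 208763_s_at (2.69 and 3.09 on the log2 scale above untreated cells), ZBTB16 (3.55 and 4.88), SGK1 (3.28 and 4.15) and NR3C1 201865_x_at (0.58 and 0.74). The 3 not called at 8 h lay below untreated cells: DUSP1 201041_s_at (−0.19), DUSP1 201044_x_at (−0.12) and KLF9 203541_s_at (−0.19). Of 17 probe sets of 8 B-cell precursor markers, 14 lay in the upper part of all mean levels (above 50% of probe sets), the highest being VPREB1 above 99.1% and the lowest PAX5 206802_at above 33.8%. At 8 h 1 of the 17 was higher (VPREB3, by 1.15) and 3 were lower, all of CD22. At 24 h 9 were higher and 4 lower, the 4 being 3 of CD22 and IGLL1 (−0.58). Over all probe sets 7.75% were higher and 9.13% lower at 8 h, and 18.5% and 18.6% at 24 h. Between 24 h and 8 h, 13.3% were higher and 11.7% lower. These shares also stand beside the calls of other lineages that follow. The probe sets of other lineages had median percentiles of 23.7 (8 of T and NK cells, highest NKG7 at 73.9), 14.3 (9 of monocytes and granulocytes, highest LYZ at 35.3) and 41.0 (7 of erythroid cells and platelets, highest GP9 at 56.8). Of these 24, GP9 206883_x_at was higher at 8 h and at 24 h by 0.82 and 1.33 and at 24 h than at 8 h by 0.51, LYZ 213975_s_at was higher at 24 h by 0.44 (adjusted p = 0.0270), and NKG7 was higher at 24 h than at 8 h by 0.38 (adjusted p = 0.00215). The part of these changes in the results was not tested. From codes in the sample labels, 5 runs on 4 days were told apart, runs 1 and 2 being of the same day. The numbers of runs and days carry no order in time, and the sources do not say whether a day is that of culture, extraction or hybridization. Runs 1 to 4 hold 1 array of each group, and run 5 holds 1 array at 8 h and 1 at 24 h. No cells were kept for 8 h or 24 h without dexamethasone, so the effect of time in culture and that of dexamethasone cannot be told apart. The sources do not say that the arrays come from separate cultures, and p-values then measure only the spread between these arrays. A lower RNA level per cell and fewer expressing cells cannot be told apart in such bulk samples.

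At 8 h of dexamethasone SLC30A1 and 9 of the 10 metallothionein probe sets, which cover all 6 genes, were higher than in untreated cells. MTF1 was not called. The 9 can match related transcripts, as described below, so they do not show 6 separately induced genes. Of the 13 member probe sets, 10 were higher and 0 were lower at 8 h (limma over all 14 arrays, Benjamini-Hochberg over 19070 probe sets, adjusted p below 0.05), where 7.75% of all probe sets were higher and 9.13% were lower. None of the 13 was lower at an unadjusted p below 0.05 either. In each of these 10 probe sets every array at 8 h lay above every untreated array, a pattern that 7.22% of all probe sets showed. The median difference was 0.80 over the 13 member probe sets and −0.017 over all 19070. With the probe sets of a gene averaged, 7 of the 8 genes were higher at 8 h, against 8.69% of all 11963 genes.

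MT2A, the most widely expressed of the human metallothionein genes, showed the largest difference at 8 h of the 13 probe sets. Its probe set 212185_x_at read 11.04, 11.14, 10.94 and 11.25 in the untreated arrays (runs 1 to 4), 12.53, 12.51, 11.67, 12.04 and 12.02 after 8 h and 11.66, 11.60, 11.34, 11.44 and 11.15 after 24 h (runs 1 to 5). The 8 h arrays lay above all others, and the lowest of the 24 h arrays fell within the untreated range. The difference at 8 h was 1.06 on the log2 scale (SE 0.16, adjusted p = 0.000132), or 2.09-fold.

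MT1X was read by 2 probe sets. On 204326_x_at the log2 values were 10.96, 11.02, 11.04 and 11.28 in the untreated arrays, 12.16, 12.12, 11.92, 12.14 and 11.88 after 8 h, and 11.74, 11.70, 11.47, 11.80 and 11.48 after 24 h, in the same order of runs. On 208581_x_at they were 10.98, 11.05, 10.95 and 11.25 in the untreated arrays, 12.22, 12.30, 11.86, 12.09 and 11.85 after 8 h, and 11.71, 11.75, 11.38, 11.76 and 11.25 after 24 h. On both, no array of 1 group overlapped another group, although on 208581_x_at the lowest 24 h array (11.253) lay just above the highest untreated array (11.249), and the 24 h arrays lay between the untreated and the 8 h arrays. MT1X at 8 h was 0.97 (SE 0.094, adjusted p = 1.91e-06) and 1.01 (SE 0.12, adjusted p = 2.41e-05) above untreated cells. The transcript accession that the array annotation gives for 204326_x_at belongs to MT1L, a metallothionein pseudogene, in RefSeq, so this probe set may not read MT1X alone.

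MT1H 206461_x_at read 10.44, 10.53, 10.29 and 10.53 in the untreated arrays, 11.47, 11.49, 11.00, 11.13 and 11.13 after 8 h, and 10.88, 10.79, 10.45, 10.68 and 10.47 after 24 h. Its 8 h arrays stood above all others, whereas the arrays of 24 h overlapped those of untreated cells. MT1H at 8 h was 0.80 (SE 0.12, adjusted p = 0.000119) above untreated cells. Both probe sets of MT1F were higher at 8 h, 213629_x_at by 0.96 (SE 0.14, adjusted p = 0.000132) and 217165_x_at by 0.90 (SE 0.13, adjusted p = 0.000124). MT1F 213629_x_at lay between 10.50 and 11.23 at 8 h, against 9.80 to 10.12 in untreated cells, and 217165_x_at between 10.57 and 11.25 against 9.89 to 10.16. Both probe sets of MT1E were also higher at 8 h, 212859_x_at by 0.80 (SE 0.16, adjusted p = 0.00242) and 216336_x_at by 0.78 (SE 0.16, adjusted p = 0.00260). MT1E 212859_x_at lay between 10.20 and 10.95 at 8 h, against 9.56 to 9.90 in untreated cells, and 216336_x_at between 8.99 and 9.78 against 8.37 to 8.70.

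MT1G gave different readings on its 2 probe sets. On 204745_x_at the values were 10.03, 10.14, 9.78 and 10.15 in the untreated arrays, 11.11, 11.34, 10.23, 10.44 and 10.55 after 8 h, and 10.06, 10.18, 9.37, 9.68 and 9.63 after 24 h (runs 1 to 5). The 8 h arrays of runs 1 and 2 stood apart from those of the other runs, and the lowest of the 8 h arrays was 10.23 against 10.15 for the highest untreated array. The difference at 8 h was 0.71 (SE 0.21, adjusted p = 0.0264), and the call was lost without the 8 h array of run 1 or 2 or the untreated array of run 1 or 3 (adjusted p = 0.0613, 0.0553, 0.0572 and 0.0795). It was also lost with array weights (0.53, adjusted p = 0.0518). A block for the run gave 0.75 (adjusted p = 0.000623). MT1G 210472_at lay between 3.55 and 3.81 on all 14 arrays and was not called in any comparison, with a difference of 0.034 at 8 h (95% confidence interval −0.11 to 0.17). Its mean level was above only 15.6% of probe sets, against 89.2% for 204745_x_at, so at this low signal it says little about MT1G.

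SLC30A1, whose product carries zinc out of the cell, was higher at both times. SLC30A1 212907_at read 8.50, 8.65, 9.04 and 9.001 in the untreated arrays (runs 1 to 4), 9.72, 9.74, 9.78, 9.58 and 9.48 after 8 h, and 9.62, 9.52, 9.74, 9.57 and 9.56 after 24 h (runs 1 to 5). The arrays of 8 h and of 24 h all lay above every untreated array and overlapped each other. SLC30A1 was 0.86 higher at 8 h (SE 0.11, adjusted p = 2.37e-05) and 0.81 higher at 24 h (SE 0.11, adjusted p = 1.22e-05), or 1.82-fold and 1.75-fold.

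MTF1, the transcription factor that binds metal response elements, was read by 2 probe sets. MTF1 205322_s_at lay between 6.96 and 7.30 at 8 h and between 6.95 and 7.19 at 24 h, against 6.88 to 7.20 in untreated cells. MTF1 205323_s_at lay between 6.88 and 7.14 at 8 h and between 6.84 and 7.12 at 24 h, against 6.91 to 7.05 in untreated cells. Neither was called at 8 h (0.057 and 0.034) or at 24 h (0.078 and 0.069), and the 95% confidence intervals over both probe sets and both times lay within −0.13 to 0.27.

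**Figure D1:**
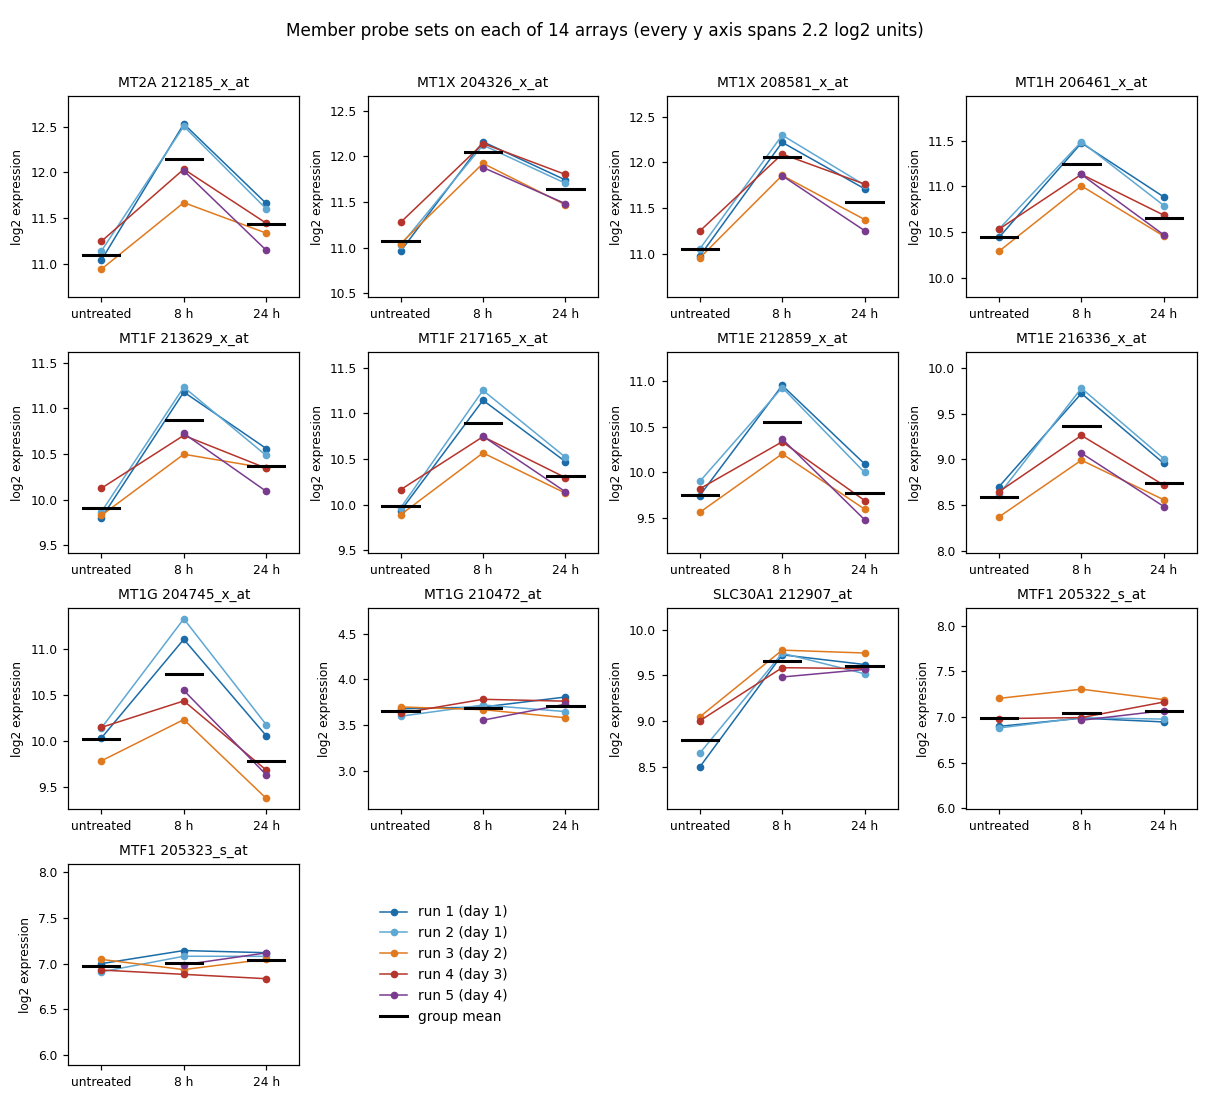
Log2 expression of each of the 13 probe sets (y axis, 2.2 log2 units in every panel) in untreated cells and after 8 h and 24 h of dexamethasone (x axis). Points are arrays, colored lines join the arrays of a run, and black bars are group means. MT2A peaks at 8 h in every run that has untreated cells, SLC30A1 overlaps between 8 h and 24 h, and MTF1 and MT1G 210472_at stay near their untreated values.

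At 24 h the metallothioneins were lower again than at 8 h, whereas SLC30A1 was not called. Of the 13 member probe sets, 9 were lower and 0 were higher at 24 h than at 8 h, where 11.7% of all probe sets were lower and 13.3% were higher. None of the 13 was higher at an unadjusted p below 0.05. The 9 were all metallothionein probe sets except MT1G 210472_at. In 7 of them every 24 h array lay below every 8 h array, which 9.64% of all probe sets showed, and in MT1F 213629_x_at and MT1E 216336_x_at the groups overlapped. The median difference was −0.50 over the 13 and 0.0094 over all probe sets. With probe sets averaged, all 6 metallothionein genes were lower, against 13.7% of all genes.

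MT1G 204745_x_at fell by 0.95 on the log2 scale (SE 0.20, adjusted p = 0.00165), the largest step of the 13 between 24 h and 8 h, or 1.93-fold. MT1E fell by 0.78 on 212859_x_at and by 0.62 on 216336_x_at (adjusted p = 0.00117 and 0.00611), and MT2A fell by 0.71 (SE 0.15, adjusted p = 0.00168). MT1H, both probe sets of MT1F and both of MT1X fell by amounts between 0.40 (MT1X 204326_x_at, adjusted p = 0.00269) and 0.59 (MT1H, adjusted p = 0.000723). SLC30A1 differed by −0.058 between 24 h and 8 h (95% confidence interval −0.27 to 0.15, adjusted p = 0.774).

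Relative to untreated cells, MT1X and SLC30A1 were still higher at 24 h, as was 1 of the 2 probe sets of MT1F, and the other 9 member probe sets were not called. This comparison and that of 8 h share the same 4 untreated arrays. Of the 13 member probe sets, 4 were higher and 0 were lower, at a background of 18.5% higher and 18.6% lower, and none was lower at an unadjusted p below 0.05. The median difference was 0.21 over the 13 and −0.011 over all probe sets. MT1X was higher by 0.56 on 204326_x_at (SE 0.094, adjusted p = 0.000135) and by 0.51 on 208581_x_at (SE 0.12, adjusted p = 0.00328). MT1F 213629_x_at was higher by 0.46 (SE 0.14, adjusted p = 0.0162), with the lowest array at 24 h (10.09) below the highest untreated array (10.12). In both probe sets of MT1X and in SLC30A1 every 24 h array lay above every untreated array, as in 16.3% of all probe sets. With probe sets averaged, the 3 genes MT1X, MT1F and SLC30A1 were higher, at a background of 19.5%.

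MT2A (0.35, adjusted p = 0.0982), MT1F 217165_x_at (0.32, adjusted p = 0.0668), MT1H (0.21, adjusted p = 0.190) and MT1E 216336_x_at (0.16, adjusted p = 0.504) were not called at 24 h. With the run as a block 8 of the 13 probe sets were higher, at a background of 21.7%, and the adjusted p of these 4 was 0.0124, 0.0108, 0.0139 and 0.0440. The difference of each of these 4 was above 0 in 4 of 4 runs, a pattern whose share over all probe sets was not counted. Under the same block 5 of the 8 genes were higher, at a background of 22.2%. MT2A and MT1F 217165_x_at also passed at 24 h with the run as a random block (adjusted p = 0.0252 and 0.0168, background 21.3%). In a fit of only the 2 groups compared they passed as well (0.0250 and 0.0234, background 18.1%). MT1F 217165_x_at passed with the variance filter (0.0482, background 31.2%) and with the filter on dim probe sets (0.0471, background 30.9%). MT1E 212859_x_at differed by 0.015 from untreated cells (95% confidence interval −0.33 to 0.36) and MT1G 204745_x_at by −0.24 (−0.68 to 0.20). Within days 2 to 4 alone, 2 probe sets were higher (MT1X 204326_x_at and SLC30A1), at a background of 19.0%, and 1 was lower, MT1G 204745_x_at by −0.40 (adjusted p = 0.0407), at a background of 20.0%.

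**Figure D2:**
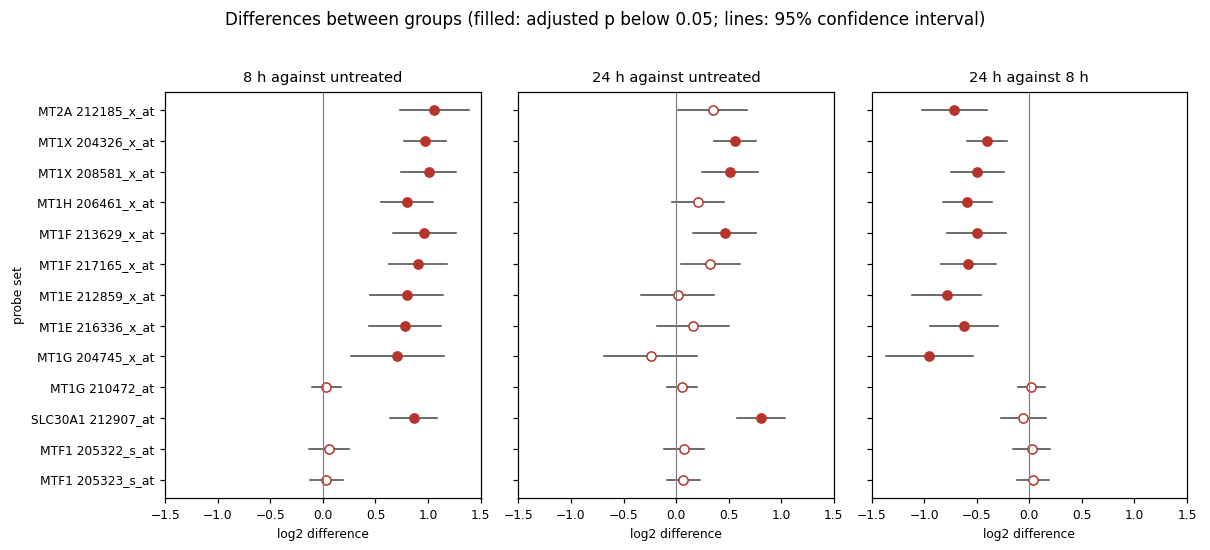
Differences on the log2 scale (x axis) of the 13 probe sets (y axis) at 8 h against untreated cells, at 24 h against untreated cells and at 24 h against 8 h. Lines are 95% confidence intervals of the limma fit and filled points passed an adjusted p of 0.05. The 9 metallothionein probe sets above MT1G 210472_at lie right of 0 at 8 h and left of 0 between 24 h and 8 h, and SLC30A1 lies at 0.86 and 0.81 against untreated cells.

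The difference at 8 h was tested for a change between day 1 and the other days, and 3 of the 13 member probe sets passed. Within runs, the median difference at 8 h over the 9 metallothionein probe sets other than MT1G 210472_at was 1.21 in run 1, 1.20 in run 2, 0.68 in run 3 and 0.60 in run 4. All 9 were above 0 at 8 h in each of these 4 runs, and all 9 were below 0 between 24 h and 8 h in each of the 5 runs (medians −0.67, −0.75, −0.45, −0.45 and −0.63). The share of all probe sets with 1 sign in every run was not counted. The 9 can match related transcripts and are not 9 separate measurements. At 24 h the medians were 0.54, 0.46, 0.24 and 0.15 in runs 1 to 4.

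Within day 1 (runs 1 and 2) the 8 h differences of these 9 probe sets ran from 0.995 (MT1H) to 1.43 (MT2A), and within days 2 to 4 from 0.44 (MT1G 204745_x_at) to 0.83 (MT1X 208581_x_at), and 10 of the 13 member probe sets were higher at 8 h within day 1 (background 7.92%) and 10 within days 2 to 4 (background 9.19%). In a fit with an interaction of time and day, the 8 h difference was larger on day 1 for MT1F 213629_x_at (1.37 on day 1 and 0.67 on days 2 to 4, adjusted p = 0.0270), MT1F 217165_x_at (1.25 and 0.66, adjusted p = 0.0331) and SLC30A1 (1.16 and 0.59, adjusted p = 0.0361). These 3 of 13 stood against 3.89% of all probe sets. All 3 calls have the same sign, and the remaining 10 members had adjusted p between 0.0610 and 0.830. At 24 h no member probe set passed this interaction test (limma, 5 of 13 at an unadjusted p below 0.05), at a background of 0.734%. Without run 5 the count at 8 h was 1, at a background of 2.55%, and under a block for the run it was 5, at a background of 4.04%.

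Levels by run were read for 2 of these 3 probe sets. For MT1F 213629_x_at the untreated arrays of runs 1 and 2 (9.80 and 9.87) lay beside that of run 3 (9.83) and below that of run 4 (10.12), and the 8 h arrays of runs 1 and 2 (11.18 and 11.23) lay above the other 3 (10.50 to 10.72). For SLC30A1 the 8 h arrays of runs 1 and 2 (9.72 and 9.74) fell among the others, and the untreated arrays of runs 1 and 2 (8.50 and 8.65) lay below the other untreated arrays (9.04 and 9.001). The log2 difference between the 3′ and 5′ control probe sets of ACTB, a sign of how complete the labeled RNA was, lay between 1.06 and 1.55 on the 6 arrays of day 1 and between 2.03 and 2.75 on the 8 arrays of days 2 to 4. For GAPDH it lay between 0.45 and 0.61 on day 1 and between 0.79 and 1.02 on days 2 to 4. Its part in the day differences was not tested.

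**Figure D3:**
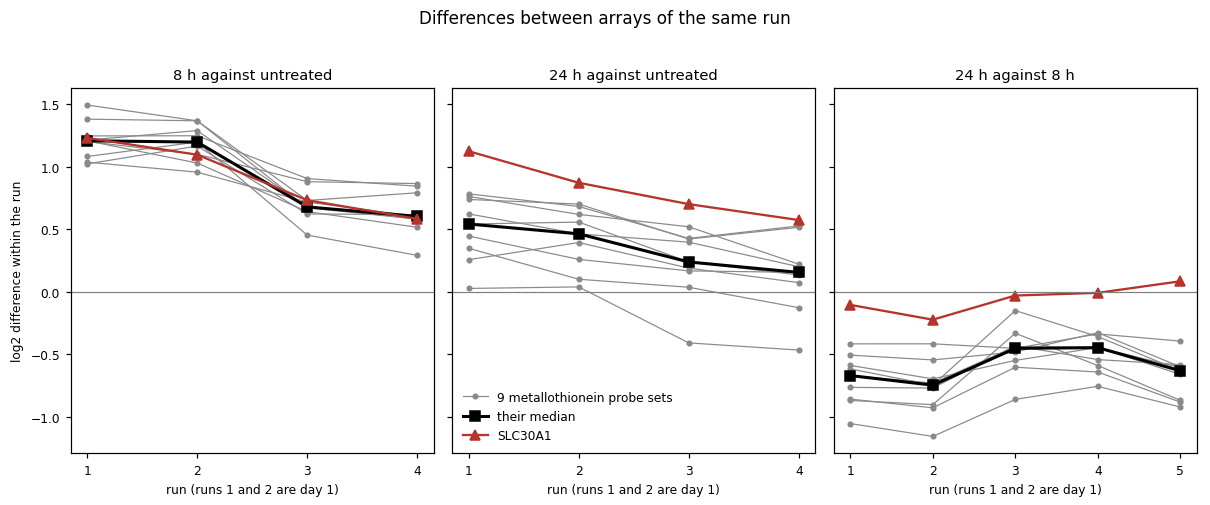
Log2 differences between arrays of the same run (y axis) by run (x axis), for 8 h against untreated cells, 24 h against untreated cells and 24 h against 8 h. Gray points are the 9 metallothionein probe sets, black squares their median and red triangles SLC30A1, and lines join the values of a probe set. The median at 8 h is 1.21 and 1.20 in runs 1 and 2 and 0.68 and 0.60 in runs 3 and 4, and between 24 h and 8 h SLC30A1 stays near 0 while all 9 lie below it.

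The 9 metallothionein probe sets moved together from array to array. Their names end in _x_at, which marks probe sets whose probes can match other transcripts, and metallothionein transcripts are close in sequence, so the 9 do not count as 9 separate measurements. After the group means were taken off, their values correlated pairwise with r between 0.56 and 0.97 (36 pairs, median 0.91) over the 14 arrays. SLC30A1 correlated with the 9 between −0.095 and 0.27 in the same deviations. These correlations are descriptions over arrays that share runs.

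Outside the members, the pattern over the 14 arrays closest to that of MT2A was that of MT1HL1, a metallothionein-like gene (r = 0.98). Its probe set name also ends in _x_at, so it is not a measurement separate from the members. It was followed by FAR2, which encodes a fatty acyl-CoA reductase (0.94), CADPS, a regulator of vesicle exocytosis (0.90), EPB41L4B (0.90) and NPY, which encodes neuropeptide Y (0.88). FAR2 220615_s_at averaged 9.004 ± 0.13 in the untreated arrays, 9.50 ± 0.11 after 8 h and 9.19 ± 0.068 after 24 h (SD, n = 4, 5 and 5). EPB41L4B 220161_s_at averaged 4.02 ± 0.074, 4.80 ± 0.19 and 4.20 ± 0.056 in the same order. Both were higher at 8 h than in untreated cells and lower at 24 h than at 8 h. They were picked for likeness to MT2A over the same arrays, so this pattern follows from the choice and is no separate result. In the deviations from the group means alone, PDCD2 (0.95), DIMT1 (0.94), CENPA (0.94), TPMT (0.94) and RPP40 (0.94) came closest to MT2A. None of these 5 was called higher at 8 h, where 7.75% of all probe sets were higher and 9.13% lower. TPMT (−0.28, adjusted p = 0.0303) and RPP40 (−0.57, adjusted p = 0.000819) were lower at 8 h, and PDCD2, DIMT1 and CENPA were not called.

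Of the other metallothioneins, 4 genes had a probe set annotated to them alone. The name of the MT1HL1 probe set also ends in _x_at, so it may read transcripts of the members. MT1HL1 211456_x_at was higher by 0.75 at 8 h (SE 0.10, adjusted p = 3.38e-05) and by 0.30 at 24 h (adjusted p = 0.0216), and lower by −0.46 at 24 h than at 8 h (adjusted p = 0.00130). MT4, known from stratified epithelium, was lower by −0.21 at 24 h than at 8 h (adjusted p = 0.0430) and was not called against untreated cells. Its probe set 217395_at averaged 5.60 ± 0.12 at 8 h and 5.39 ± 0.041 at 24 h, against 5.54 ± 0.13 in untreated cells. That mean level was above only 42.4% of probe sets. MT3, known from brain, and MT1M were not called in any comparison. MT1M 217546_at averaged 3.14 ± 0.12 at 8 h and 2.93 ± 0.13 at 24 h, against 2.99 ± 0.098 in untreated cells.

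No zinc importer was called higher, and some were lower, the opposite direction to SLC30A1. Of 14 probe sets of 8 importer genes (the SLC39 or ZIP family, which carries zinc into the cytosol), 5 were lower and 0 were higher at 8 h, and again 5 lower and 0 higher at 24 h, with medians of −0.20 and −0.23. Over all probe sets 9.13% were lower at 8 h and 18.6% at 24 h. At an unadjusted p below 0.05, 1 was higher at 8 h and 0 at 24 h. SLC39A14, which also carries iron and manganese, averaged 8.18 ± 0.27 in the untreated arrays, 7.05 ± 0.12 after 8 h and 6.71 ± 0.089 after 24 h (SD), and all of its treated arrays lay below its untreated arrays. It was lower by −1.13 at 8 h (adjusted p = 1.44e-06) and by −1.47 at 24 h (adjusted p = 1.40e-08). SLC39A4, the importer for dietary zinc in the gut, was lower by −0.91 (adjusted p = 3.96e-07) and −1.02 (adjusted p = 2.32e-08).

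SLC39A8 was lower on 2 of its 4 probe sets, by −0.59 and −0.56 at 8 h and 24 h on 219869_s_at and by −0.50 and −0.40 on 209267_s_at. SLC39A6 was lower on 202088_at by −0.34 and −0.29, and not called on 202089_s_at (−0.32 and −0.36). Between 24 h and 8 h, SLC39A14 (−0.34, adjusted p = 0.0198) and SLC39A9 217859_s_at (−0.30, adjusted p = 0.0306) were lower, and no importer probe set was higher at an adjusted or an unadjusted p below 0.05.

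Of the other exporters, 7 probe sets of 6 SLC30 genes, which carry zinc out of the cytosol, were read. At 8 h 1 was higher and 0 were lower, and at 24 h 1 was higher and 1 lower, with medians of −0.0012 and 0.012. Over all probe sets 7.75% were higher and 9.13% lower at 8 h, and 18.5% and 18.6% at 24 h. With so few probe sets, these counts do not set the other exporters apart. SLC30A9, a zinc transporter of mitochondria, was higher by 0.24 at 8 h (adjusted p = 0.0400) and by 0.27 at 24 h (adjusted p = 0.00982). SLC30A5 was lower at 24 h on 220181_x_at (−0.32, adjusted p = 0.00833) and not called on 218989_x_at (0.15, adjusted p = 0.0917). None of the 7 was called between 24 h and 8 h, where 13.3% of all probe sets were higher and 11.7% lower. None of the 7 had an unadjusted p below 0.05 there.

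Genes of copper handling, which metallothioneins also serve, included a few with large differences. Of 13 probe sets of 10 genes, 1 was higher and 2 were lower at 8 h, 4 were higher and 4 lower at 24 h, and 2 were higher and 3 lower at 24 h than at 8 h, beside backgrounds of 7.75% and 9.13%, 18.5% and 18.6%, and 13.3% and 11.7%. Their medians were −0.13 at 8 h, −0.086 at 24 h and −0.026 between 24 h and 8 h. SLC31A2, a low-affinity copper transporter, averaged 5.59 ± 0.21 in the untreated arrays, 7.61 ± 0.18 after 8 h and 8.49 ± 0.15 after 24 h. It was higher by 2.02 at 8 h (adjusted p = 2.64e-09) and by 2.90 at 24 h (adjusted p = 7.14e-12). SLC31A1, the main copper importer, was lower by −0.42 at 8 h and −1.18 at 24 h. SCO2, which hands copper to cytochrome c oxidase, was lower by −0.64 and −0.92, and CCS, which hands copper to SOD1, was higher by 0.51 at 24 h (adjusted p = 7.80e-05).

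**Figure D4:**
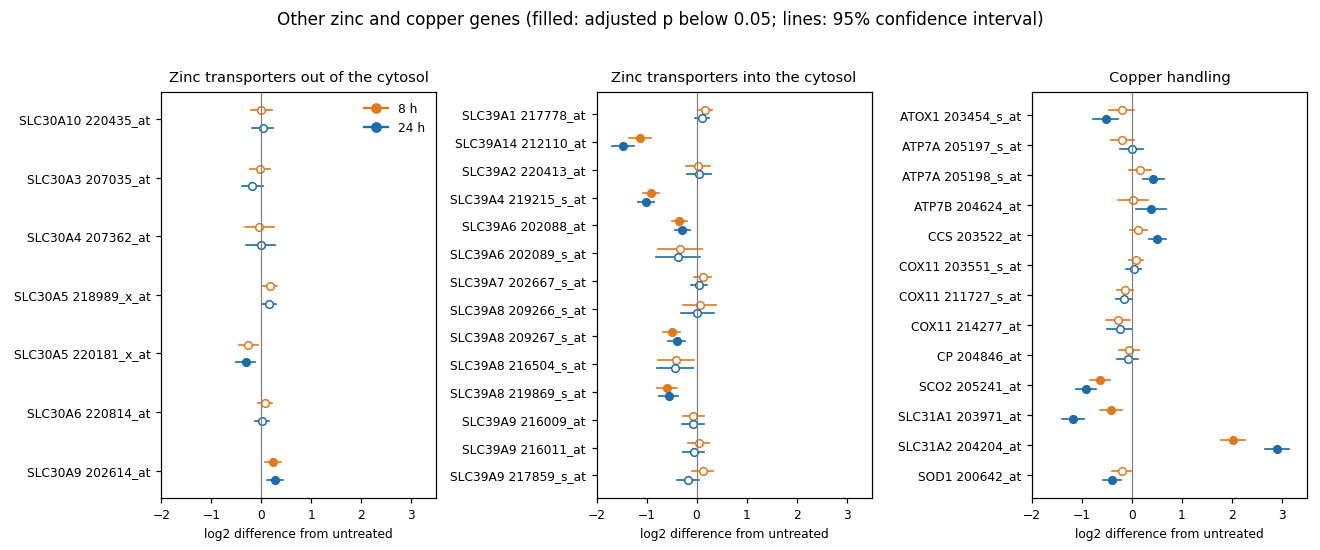
Log2 differences from untreated cells (x axis) at 8 h (orange) and 24 h (blue) for probe sets of zinc exporters other than SLC30A1, zinc importers and copper genes (y axis), with 95% confidence intervals and filled points at an adjusted p below 0.05. All called importer probe sets lie left of 0, with SLC39A14 at −1.13 and −1.47, and SLC31A2 lies at 2.02 and 2.90.

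Genes of the heavy metal and oxidative stress response were called in both directions. Of 20 probe sets of 11 genes, 3 were higher and 1 was lower at 8 h, and 2 were higher and 1 lower at 24 h. Between 24 h and 8 h, 2 were higher and 3 lower at 24 h. The medians were 0.052, −0.018 and −0.15. Over all probe sets the shares higher and lower were 7.75% and 9.13%, 18.5% and 18.6%, and 13.3% and 11.7% in the same order. The 3 higher at 8 h were all probe sets of NQO1, a quinone reductase (201467_s_at 0.58, adjusted p = 0.0125; 201468_s_at 0.75, adjusted p = 0.0267; 210519_s_at 0.75, adjusted p = 0.0183). At 24 h NQO1 lay 0.17, 0.20 and 0.015 from untreated cells with no call, and 201467_s_at and 210519_s_at were lower than at 8 h (−0.41 and −0.74). HMOX1, which degrades heme and responds to metals, was not called at 8 h (0.066, adjusted p = 0.815) or at 24 h (−0.15, adjusted p = 0.397). At 24 h NFE2L2, the oxidative stress transcription factor NRF2, was higher by 0.34, and TXNRD1, a thioredoxin reductase, was lower by −0.57. SLC7A11, which encodes a subunit of the cystine importer, was higher at 24 h by 0.39 on 207528_s_at. It was not called at 24 h on 209921_at (0.037, SE 0.31) or on 217678_at (0.082, SE 0.36). The mean levels of these uncalled probe sets were above 71.5% and 68.1% of probe sets, against 39.3% for 207528_s_at.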

How the data were processed

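RNA of RS4;11 cells was hybridized to Affymetrix-protocol arrays (the methods name the chip hgu133a2). The authors background-corrected, normalized and summarized 14 arrays with RMA from the affy package (version not given in the sources used here), left out 1 untreated array after quality control, and deposited log2 values for 22277 probe sets. Array signal has no count behind it, so the number of arrays limits the precision.

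Gene names came from the platform annotation: 19070 probe sets had 1 gene, 1043 had several and 2164 were unlisted. limma 3.58.1 (lmFit, eBayes; R 4.3.3) was fitted to all 14 arrays and all 19070 probe sets without a filter or block, with Benjamini-Hochberg adjustment and a threshold of 0.05. The model was tested on simulated data for 8 h against untreated cells. It recovered 72% of 100 changes of 0.5 on the log2 scale and 99% of 100 changes of 1, with 9 false calls. The simulated arrays were independent, so likeness between arrays of a run was not part of this test. Groups, replicates and runs came from the sample labels. Deviations from group means correlated within runs with r between 0.341 and 0.560 in all 13 pairs of arrays, so arrays of a run resembled each other. The main fit did not use this pairing, and the run as a block was an alternative. All member probe sets were named. Of other lists, counts, medians and up to 4 called genes per comparison were named; MT3, MT1M and HMOX1, and some further probe sets of named genes, were named after their values were seen. The members and lists were chosen with earlier results of these data known. The 5 genes closest to MT2A were ranked by Pearson's r. Promoter sequences came from RefSeq (GRCh38.p14), in a table in which 5 of the 8 members were matched.

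The alternatives were the study's variance filter at 0.5, which 10 of the 13 member probe sets passed, a filter on dim probe sets, all probe sets, robust eBayes with a trend, array weights, cyclic loess, equal medians, a fit of only the 2 groups compared, fixed blocks for run, title number or day, a random block for run, single days, no run 5, a threshold of 0.01 and each array left out.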

Additional observations from a re-analysis of the deposited data

Results flagged for a closer look

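MTF1 205322_s_at read 7.30 on the 8 h array of run 3, far above the next highest array of its group at 6.99. Run 3 also held the highest value of this probe set at 24 h (7.19) and in untreated cells (7.20). MTF1 205323_s_at read 6.84 on the 24 h array of run 4, far below the next lowest of its group at 7.05. Both were found in a search of 39 groups of arrays for a single value far from the others, where chance flags about 1 in 20 groups. At 8 h, run 3 also held the lowest values of the 9 metallothionein probe sets except both probe sets of MT1X.

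The 8 h difference was larger on day 1 than on days 2 to 4 by 0.57 for SLC30A1, by 0.71 for MT1F 213629_x_at and by 0.59 for MT1F 217165_x_at, each by the interaction test.

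The effect at 24 h and that at 8 h, which share the untreated arrays, differed for 9 metallothionein probe sets by the test of 24 h against 8 h. The differences were −0.71 for MT2A, −0.40 and −0.49 for MT1X 204326_x_at and 208581_x_at, −0.59 for MT1H, −0.50 and −0.58 for MT1F 213629_x_at and 217165_x_at, −0.78 and −0.62 for MT1E 212859_x_at and 216336_x_at, and −0.95 for MT1G 204745_x_at.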

How the results depend on the processing

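The counts of member probe sets at 8 h and between 24 h and 8 h stayed within 1.5 times the main count under every alternative run (9 to 10 higher at 8 h and 9 lower between 24 h and 8 h when each array was left out). The count higher at 24 h, 4, became 8 with the run as a replicate block, 7 with the title number as a block, 8 with the day as a block, 8 within day 1 (over all probe sets 21.7%, 21.3%, 21.8% and 17.0%) and 2 within days 2 to 4, where 1 was lower, and 5 in place of 3 genes were higher with the run block. It was 4 to 6 with each array left out: without the 8 h array of run 2 or 3, MT1F 217165_x_at passed (adjusted p = 0.0384 and 0.0471), and without that of run 3, MT2A passed (0.0491). The run block changed no other call of a member probe set against untreated cells or between 24 h and 8 h. The count of members whose 8 h effect differed between days, 3, became 1 without run 5 and 5 with the run block.

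Signs turned only in differences that were not called in the main analysis. MTF1 205322_s_at between 24 h and 8 h became −0.0074 with cyclic loess, −0.0052 with equal medians, −0.028 within day 1 and −7.6e-05 without run 5, and lay between −0.0092 and 0.085 with each array left out. At 8 h it was −0.0060 within days 2 to 4, and lay between −0.0066 and 0.13 with each array left out. MTF1 205323_s_at was −0.0083 with array weights and −0.053 within days 2 to 4 at 8 h, and −0.012 within day 1 between 24 h and 8 h. MT1E 212859_x_at at 24 h was −0.033 with equal medians, −0.024 with array weights and −0.10 within days 2 to 4, and lay between −0.065 and 0.088 with each array left out. MT1G 210472_at between 24 h and 8 h was −0.0057 with equal medians and −0.018 without run 5, and lay between −0.012 and 0.052 with each array left out. MT1G 204745_x_at at 24 h, −0.24 in the main analysis, was 0.031 within day 1 and −0.40 within days 2 to 4, where it was called lower, and SLC30A1 between 24 h and 8 h was 0.014 within days 2 to 4. The causes were not tested.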
